A study of Homo sapiens with 16 samples.

Results

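The results below concern the 587 shortest genes with usable signal among the 18093 gene intervals counted in HL60 cells. An interval belonged to this class if it spanned under 3000 bases from its first to its last base, introns included, and held at least 100 counts summed over all libraries. Of 1762 intervals under 3000 bases, 1110 fell under that count minimum, and 18 cytosolic ribosomal protein genes and 47 histone genes past it were left out, because both families form separate classes of short transcripts. HL60 is a human myeloid leukaemia line. Its cells received either 50 nM of SY-351, which inhibits the kinase CDK7, or the solvent DMSO alone for 5 h, and polyadenylated RNA was sequenced. Both groups were the same unmodified line in the same serum-containing medium, with 4 numbered replicates each and 2 technical repeats per replicate, so that 16 records stood behind 8 count columns. The series examined what CDK7 does in gene expression, splicing and termination. The labels do not tell whether numbered replicates came from different cultures, and the p-values therefore cover the variation among these libraries alone, which may be technical.

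CDK7 is the kinase of the CDK-activating complex, which is part of the general transcription factor TFIIH, and it phosphorylates the tail of RNA polymerase II near the promoter. A polymerase crosses a gene of this length in little time, and many such genes have no intron or only a few, so that the level of their RNA can follow changes in transcription and in RNA decay closely. The class holds several kinds of gene, among them intronless genes for transcription factors and signalling proteins. Others are small multi-exon genes for respiratory chain subunits, myeloid granule proteins and iron or redox enzymes. The stability of their mRNAs was not measured here. HL60 cells resemble promyelocytes, which make granule proteases and depend on transcription factors of the C/EBP family.

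Exon numbers were found for 575 members: 154 had 1 exon and 421 had at least 2. They come from 1 GENCODE transcript mapped to each RefSeq identifier, which need not fit the counted interval. In FAM110A (2 exons) that transcript has 1809 spliced bases and the interval 1636, and in CEBPD (1 exon) they are 2178 and 1253. None of the 577 intervals of 20 to 100 kb that were matched to the members on expression and had a known exon number was a single exon. The members' transcripts were also richer in G and C, with a median GC content of 59.6% against 47.6% in the matched intervals. By length, 38 members spanned under 1000 bases, 218 spanned at least 1000 and under 2000, and 331 spanned at least 2000. A member on the opposite strand of another counted gene was common (102 of 587), and same-strand overlap was rare (2 of 587). The authors assigned reads by strand (featureCounts strand setting 1). The labels do not say whether the library kit kept strand, so reads of these opposite partners may still not be separable.

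Promoter letters were read for the 373 members whose RefSeq start (GRCh38.p14) lay within 100 bases of the counted interval's start. The letters TATAAA, beginning 40 to 20 bases before the start on the gene's own strand, stood in 25 of these promoters (6.70%), against 8 of 366 matched intervals (2.19%) and 2.55% of all 27305 promoters in the table. The palindrome CACGTG, which reads the same on both strands, stood anywhere from 250 bases before to 50 bases after the start in 51 of the 373 (13.7%), against 34 of 366 (9.29%) and 7.43% of all promoters. Among members that fell in the comparison with DMSO 3 and 4 described below, 23 of 121 promoters held CACGTG (19.0%), against 8 of 122 among those that rose (6.56%). TATAAA stood in 8 of the 121 and 11 of the 122. In the matched intervals CACGTG stood in 10 of 88 promoters of those that fell (11.4%) and 6 of 72 of those that rose (8.33%). By exon number, 8 of 89 promoters of single-exon members held it (8.99%), and 43 of 280 with at least 2 exons (15.4%). These matches describe the letters only. The 100 bases before the start are shown for 7 members with such a match whose values are given below, 4 with TATAAA and 4 with CACGTG (ATF4 has both), 5′ to 3′ on the gene's strand with the matched letters in capitals.
CEBPA: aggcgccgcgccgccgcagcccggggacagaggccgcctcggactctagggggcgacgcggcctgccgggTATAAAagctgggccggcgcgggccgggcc
JUNB: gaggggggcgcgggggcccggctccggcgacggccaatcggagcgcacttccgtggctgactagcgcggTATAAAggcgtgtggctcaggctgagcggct
ATF4: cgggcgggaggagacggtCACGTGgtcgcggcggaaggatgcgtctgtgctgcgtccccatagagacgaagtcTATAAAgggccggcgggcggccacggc
S100A4: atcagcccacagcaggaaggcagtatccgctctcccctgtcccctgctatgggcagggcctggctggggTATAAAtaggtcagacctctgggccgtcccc
EIF1B: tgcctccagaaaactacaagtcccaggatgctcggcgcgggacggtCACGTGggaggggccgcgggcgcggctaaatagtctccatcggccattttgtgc
TCEAL8: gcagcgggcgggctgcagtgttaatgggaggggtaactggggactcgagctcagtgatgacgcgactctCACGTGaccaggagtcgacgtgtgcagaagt
GPX1: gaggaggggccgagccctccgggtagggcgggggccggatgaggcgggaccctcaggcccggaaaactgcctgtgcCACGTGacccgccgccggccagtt
They lie at chr19:33302535-33302634 (CEBPA, minus strand), chr19:12791386-12791485 (JUNB, plus), chr22:39520459-39520558 (ATF4, plus), chr1:153545807-153545906 (S100A4, minus), chr3:40309607-40309706 (EIF1B, plus), chrX:103255156-103255255 (TCEAL8, minus) and chr3:49358354-49358453 (GPX1, minus). TATAAA begins 30 bases before the start in CEBPA, 31 in JUNB, 27 in ATF4 and 31 in S100A4. Against DMSO 3 and 4, CEBPA and ATF4 fell while JUNB and S100A4 rose. Of the genes shown with CACGTG, ATF4, EIF1B and TCEAL8 fell and GPX1 rose against the same 2 controls, so each match is shown with both directions.

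The libraries held 103676557 to 124242039 assigned counts in DMSO and 43266228 to 77891776 in SY-351. Levels are given in CPM (counts per 1000000 assigned counts), and 3 counts equalled 0.0241 to 0.0693 CPM. Of 9 promyelocyte markers 6 were in the table, with a summed level of 20810 to 37050 CPM in DMSO and 31260 to 34690 CPM in SY-351. MPO, the granule enzyme myeloperoxidase, made up most of it (19050 to 33560 CPM), and the others varied more between libraries (CD33 from 2.04 to 104 CPM, CTSG from 12.7 to 681 CPM). T cell, erythroid and fibroblast or epithelial markers summed to at most 4.07 CPM in every library. B cell markers summed to 6.73 to 8.95 CPM in DMSO and 17.0 to 18.1 CPM in SY-351, nearly all of it CD79A, and the part of this difference in the results was not tested. DMSO 1 and 2 stood apart from DMSO 3 and 4. Across the members, the correlation of log2 CPM was 0.980 within the first pair and 0.996 within the second, but 0.698 to 0.749 between the pairs, and 0.895 to 0.911 between DMSO 3 or 4 and SY-351. The main counts are therefore given with all 4 DMSO libraries and with DMSO 3 and 4 alone. Many single genes are given only with the fold against DMSO 3 and 4, which need not hold with all 4 controls. The same SY-351 libraries and DMSO 3 and 4 enter both comparisons.

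The split among the DMSO libraries ran through the short genes. In 387 of the 587 members both DMSO 1 and 2 exceeded both DMSO 3 and 4, and in 161 both lay below. Among the matched intervals these counts were 91 and 429 of 587. The median difference (DMSO 1 and 2 minus DMSO 3 and 4, log2 CPM) was 1.02 in members and −1.36 in all intervals of 20 to 100 kb. FTL, the ferritin light chain that stores iron, was counted at 24.1 and 11.6 CPM in DMSO 1 and 2 but at 4188 and 4392 CPM in DMSO 3 and 4. Of 281 members with at least 10 CPM in DMSO 3 and 4, 36 were below 10% of that level in DMSO 1 and 2, and their median GC content was 48.95%. Another 132 were over 2 times higher there, with a median GC content of 63.7%. What sets these libraries apart was not tested.

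As a share of each library, single-exon members dropped after SY-351. They took 1.40%, 1.58%, 0.440% and 0.446% of all counts in DMSO 1 to 4, and 0.220%, 0.225%, 0.226% and 0.232% in SY-351 1 to 4. Every SY-351 library lay below every DMSO library. Members of at least 2 exons took 3.36%, 3.23%, 2.35% and 2.40% in DMSO, and 2.95%, 2.90%, 2.88% and 2.87% in SY-351, between the DMSO pairs. FTL made up 14.9% and 15.4% of all member counts in DMSO 3 and 4 and 31.3% to 31.7% in SY-351. Without FTL, members of at least 2 exons took 1.93% and 1.96% in DMSO 3 and 4 and 1.89% to 1.95% in SY-351. In DMSO 1 and 2 they took 3.36% and 3.22%. Their summed share outside FTL was thus about level against DMSO 3 and 4, and lower in SY-351 than in DMSO 1 and 2. The matched long intervals took 2.79% to 2.90% in DMSO and 2.51% to 2.58% in SY-351.

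**Figure D1:**
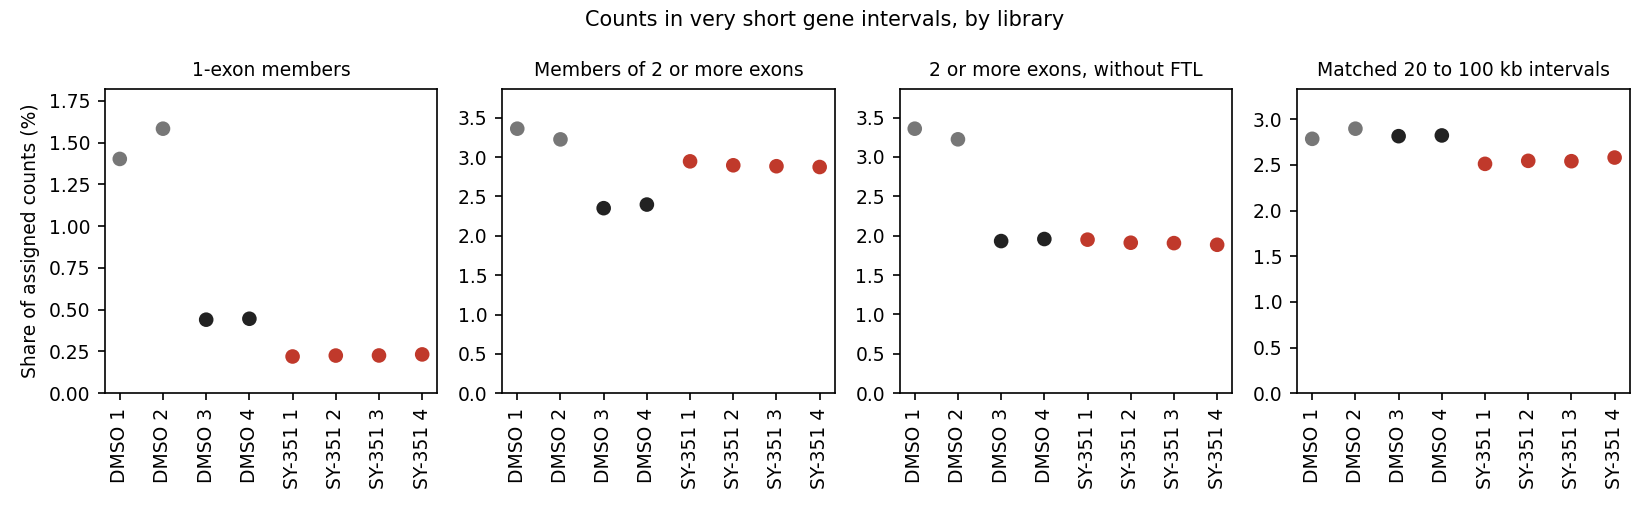
Share of all assigned counts (%, linear axis from 0) that fell in single-exon members, in members of at least 2 exons, in the latter without FTL, and in the matched 20 to 100 kb intervals. Each point is 1 library (grey DMSO 1 and 2, black DMSO 3 and 4, red SY-351); single-exon members drop from 0.440% and 0.446% in DMSO 3 and 4 to 0.220% to 0.232%, while the multi-exon panel without FTL is level between these libraries.

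With all 4 DMSO libraries as controls, 155 of 581 members tested fell and 14 rose (edgeR's quasi-likelihood test, adjusted p below 0.05). Across all 15475 intervals tested, 13.6% fell and 2.91% rose. The matched intervals gave 58 lower and 19 higher of 577. The members' median log2 fold was −1.29, against 0.08 in the matched intervals and 0.00 in all intervals, and all 155 falls were at least 2-fold. In plain CPM, the highest treated library was lower than the lowest DMSO library in 218 of 581 members (37.5%), against 99 of 577 matched intervals (17.2%) and 21.4% of all intervals. The reverse order was found in 75 members (12.9%), against 11.2% of all intervals. Leaving out any 1 SY-351 library left 27 to 34 falls, and leaving out DMSO 1 or DMSO 2 left 91 and 99. Without DMSO 3 there were 246 and without DMSO 4 there were 194.

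This decline went with base composition. In the same fit the median log2 fold was 0.78 in the 96 tested members with GC under 50%, −0.91 in 200 with 50 to 60%, and −1.79 in 273 with at least 60%. All intervals of 20 to 100 kb ran the same way, with 0.29, −0.17 and −0.91 in these classes. With DMSO 3 and 4 alone the members' medians were 0.13, −0.13 and 0.40, with no such order. For the members as a class, the decline with all 4 controls therefore cannot be told apart from the difference between the DMSO pairs. In single members the pairs could lie close together. MRPL17, for 1, stood at 66.2, 62.3, 55.9 and 57.1 CPM in DMSO and at 5.92 to 7.61 CPM in SY-351.

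With DMSO 3 and 4 as the only controls, the short genes moved both ways. Of 577 members tested 204 rose and 184 fell, 35.4% and 31.9%, against 21.9% and 26.4% of all 15814 intervals. The matched intervals gave 104 higher and 140 lower of 587. Changes of at least 2-fold were seen in 136 higher and 135 lower members, and in 29 and 52 matched intervals. The middle of the distribution hardly differed: the median log2 fold was 0.17 in members, −0.03 in matched intervals and 0.01 in all intervals, and the members' difference from the matched intervals became −0.04 when DMSO 3 was left out. The spread did differ, with an SD of log2 folds of 1.41 over members and 0.852 over matched intervals. The matching used the mean level over all 8 libraries, DMSO 1 and 2 included. In DMSO 3 and 4 alone the median level was 8.80 and 8.67 CPM in members and 13.7 and 12.8 CPM in matched intervals. Whether this difference in level has a part in the spread and the calls was not tested. Of the 155 members lower with all 4 controls, 145 were lower here too, and the 14 higher ones were all higher here.

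These folds rest on TMM, a scaling that sets the bulk of intervals to no change. It gave DMSO 3 a factor of 1.42 and DMSO 4 a factor of 1.06, although the members' median difference between these libraries was 0.005 in log2 CPM. Long intervals were higher in DMSO 3, by a median of 0.94 in those of at least 200 kb. Scaling to total counts moved the median of all intervals from 0.01 to −0.45 and that of members from 0.17 to −0.25, and gave 155 higher and 242 lower members, against 13.1% and 43.3% of all intervals. Of the 204 rises 155 also passed with total counts. The 184 falls all passed, which a downward shift of every fold makes likely. Levels below are plain CPM, while folds are TMM-scaled, so a fold against DMSO 3 and 4 lies above the ratio of the CPM printed beside it by about that shift.

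The direction went with exon number. With DMSO 3 and 4 as controls, 71 of 149 tested single-exon members fell (47.7%) and 27 rose (18.1%), with a median log2 fold of −0.65. Members of 2 exons gave 55 lower and 36 higher of 128 (median −0.26). Those of 3 exons gave 26 lower and 50 higher of 110 (0.55), and those of at least 4 exons gave 31 lower and 88 higher of 178 (0.53). The matched partners of single-exon members had a median of −0.08, with 28 lower and 26 higher of 154. Among the better counted members, with a mean of at least 10 CPM, 42 of 63 with 1 exon fell and 15 rose, while 66 of 221 with more exons fell and 113 rose. Scaling to total counts left 80 lower and 20 higher single-exon members and turned the multi-exon class to 157 lower and 133 higher, with a median of −0.05 in place of 0.39.

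The same order was seen just beyond the length limit and at 50% GC or more, and not under 50% GC. Intervals of at least 3000 and under 4000 bases gave 18 lower and 1 higher of 33 with a single exon (median −0.92), and 99 lower and 93 higher of 276 with more exons (0.11). Within the members of at least 60% GC, 26 of 56 single-exon genes fell and 9 rose, against 46 lower and 93 higher of 212 with more exons. At 50 to 60% GC the single-exon genes gave 30 lower and 2 higher of 48, and the others 47 lower and 69 higher of 152. Under 50% GC the order of the medians was the reverse, with 0.44 for single-exon genes (15 lower and 16 higher of 45) and 0.05 for the others (19 lower and 12 higher of 52). All 4 control libraries gave the same order of medians between 1 and 2 exons (−2.11 and −1.63) and a smaller decline at 3 and at least 4 exons (−0.81 and −0.84).

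**Figure D2:**
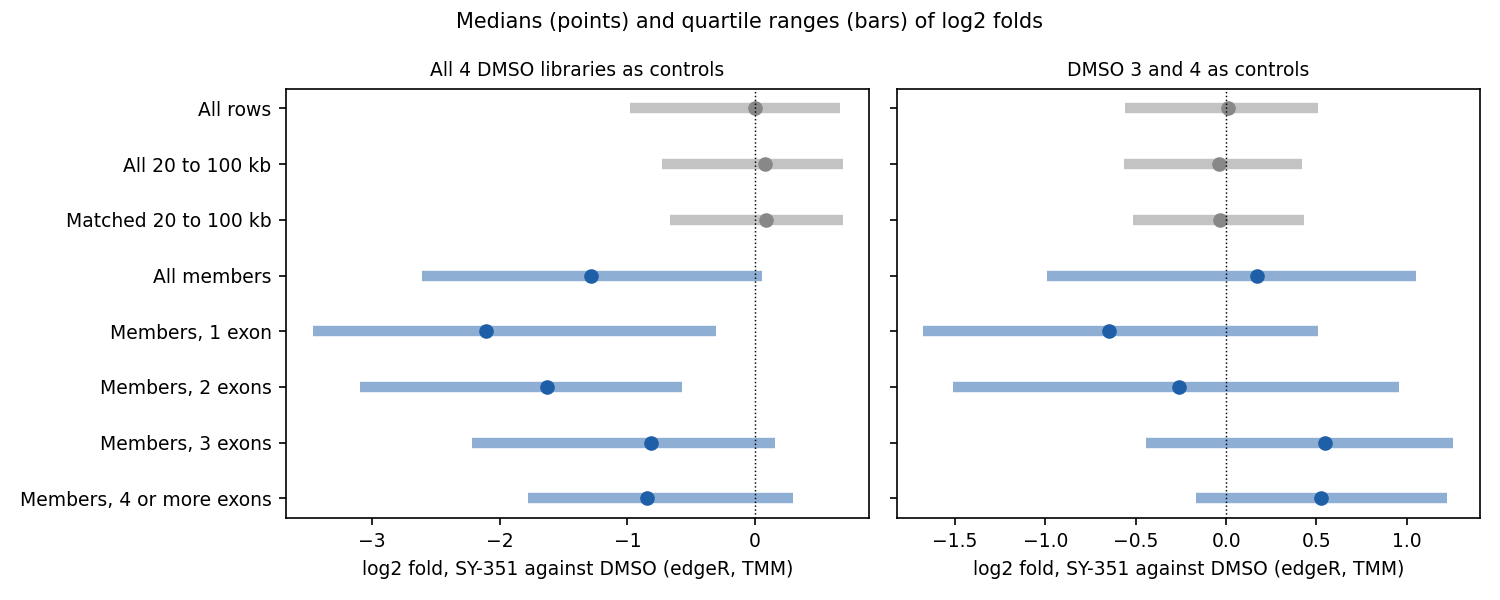
Median (point) and quartile range (bar) of the log2 fold after SY-351, on a linear axis, for all intervals, the 20 to 100 kb intervals, the matched intervals, and the members in all and by exon number. With all 4 controls (left) every member class lies below the grey classes; with DMSO 3 and 4 (right) the member medians run from −0.65 at 1 exon to 0.53 at 4 or more, on both sides of the matched median of −0.03.

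**Figure D3:**
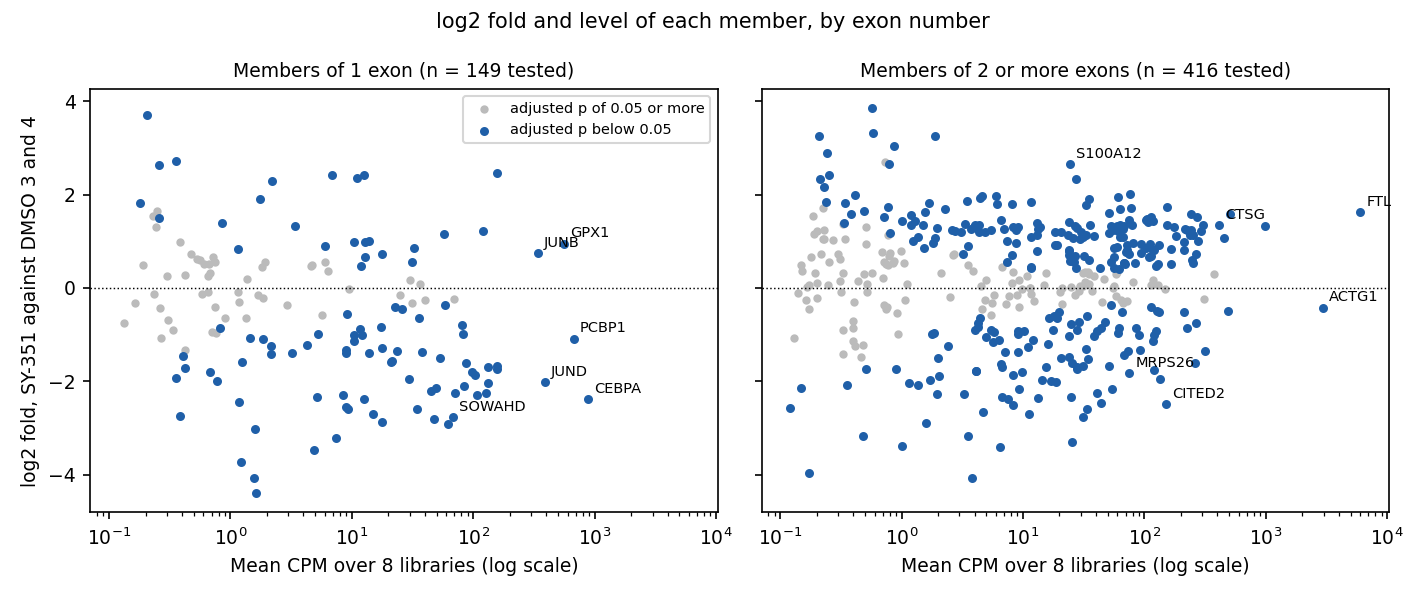
log2 fold against DMSO 3 and 4 (vertical, linear) and mean CPM over 8 libraries (horizontal, log scale) of each member, split by exon number; blue points have an adjusted p below 0.05. Among well counted genes the left panel (1 exon) is mostly below 0, and the right panel (2 or more exons) holds a band of genes near 1 as well as genes below 0.

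The intronless transcription factor genes CEBPA, JUND and CEBPD fell. CEBPA, the C/EBP factor that directs granulocyte differentiation (chr19:33299933-33302564, GRCh38, 1 exon), was counted at 2537, 2844, 635 and 648 CPM in DMSO 1 to 4 and at 91.1, 96.7, 92.2 and 88.1 CPM in SY-351. The groups were far apart, and even the lower DMSO pair lay above every treated library. The log2 fold was −2.38 ± 0.15 (SE, adjusted p = 1.48e-52) against DMSO 3 and 4 and −4.69 ± 0.91 (adjusted p = 0.0132) against all 4 controls. JUND, an AP-1 subunit (chr19:18279693-18281622, 1 exon), went from 1177, 1376, 205 and 201 CPM to 34.5, 39.6, 39.6 and 35.6 CPM, again without overlap, and fell by 2.02 on the log2 scale against DMSO 3 and 4 (adjusted p = 2.14e-37). CEBPD, another C/EBP factor, went from 314, 385, 46.0 and 46.4 CPM to 9.32, 10.1, 10.2 and 8.09 CPM (log2 fold −1.87, adjusted p = 3.84e-32). With all 4 controls the calls of CEBPA, JUND and CEBPD were lost on leaving out any 1 SY-351 library (highest adjusted p 0.126, replicate block included), whereas no such omission lost them against DMSO 3 and 4.

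CITED2, IRF2BP1 and PRMT6 also fell. CITED2, which binds the coactivators CBP and p300 (chr6:139371806-139374648, 2 exons), stood at 387, 433, 152 and 156 CPM in DMSO and at 17.2, 20.1, 19.3 and 25.5 CPM in SY-351. Its log2 fold was −2.49 ± 0.16 against DMSO 3 and 4 (adjusted p = 9.39e-56). IRF2BP1, a corepressor that binds IRF2, went from 310.0, 384, 64.9 and 66.9 CPM to 10.2, 10.9, 10.2 and 8.99 CPM (−2.29, adjusted p = 1.11e-48). PRMT6, an arginine methyltransferase that acts on histone H3, went from 82.8, 83.9, 43.2 and 42.3 CPM to 4.98, 5.07, 5.83 and 5.13 CPM (−2.60, adjusted p = 3.73e-55). None of these 3 genes had overlapping groups.

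Of 15 members among short transcription factor genes, 7 fell and 3 rose against DMSO 3 and 4 (8 and 2 with total counts), and their median log2 fold was −0.90. For this list and those below, the shares of all intervals were 26.4% lower and 21.9% higher, and 43.3% and 13.1% with total counts. Those that rose were JUNB, HES6 and ZNF580. JUNB, the AP-1 partner of JUND with a single exon of its own (chr19:12791485-12793315), stood at 838, 972, 128 and 131 CPM in DMSO and at 152, 172, 168 and 156 CPM in SY-351. Treated libraries lay above DMSO 3 and 4 and below DMSO 1 and 2, so the direction depends on the controls: the log2 fold was 0.74 ± 0.16 (adjusted p = 2.61e-05) against the former and −2.24 ± 0.93 (adjusted p = 0.14) against all 4. ATF4, the transcription factor of the integrated stress response, went from 734, 820.0, 566 and 579.7 CPM to 306, 291, 319 and 294 CPM, without overlap. Its TMM-scaled fold was smaller than that of the factors above, −0.50 ± 0.16 (adjusted p = 0.00407).

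Immediate early and feedback genes, which respond to signals within minutes, gave 9 lower and 3 higher of 15 members with DMSO 3 and 4 (median −0.74), against 26.4% and 21.9% of all intervals. Total counts gave 10 lower and 1 higher, and all 4 controls gave 7 lower, against 13.6% of all intervals. ATF4, JUND and JUNB belong to this list and to that of short transcription factors, so the 2 lists are not separate. The 3 that rose under TMM, JUNB, IER5L and GADD45B, were all lower in SY-351 than in DMSO 1 and 2. In plain CPM GADD45B, a stress-induced signalling protein, hardly moved, with 47.98 and 41.9 CPM in DMSO 3 and 4 and 41.4, 45.9, 43.7 and 45.3 CPM in SY-351 (0.41, adjusted p = 0.026). DDIT4, an inhibitor of the kinase mTORC1, stood at 117, 116, 46.3 and 47.8 CPM in DMSO and at 5.16, 6.60, 7.51 and 6.26 CPM in SY-351. It fell by 2.46 on the log2 scale (adjusted p = 4.51e-52), and its libraries did not overlap.

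PCBP1, B3GALT6, HPS6 and SOWAHD, each with 1 exon, fell as well. PCBP1, an RNA-binding protein that recognises runs of C (chr2:70087476-70089202, 1 exon), was at 1631, 1835, 561 and 569 CPM in DMSO and at 199, 199, 199 and 198 CPM in SY-351. B3GALT6, a galactosyltransferase of the proteoglycan linker, went from 169, 207, 52.6 and 50.9 CPM to 4.16, 6.08, 5.64 and 4.55 CPM. Neither gene's groups overlapped, and the log2 folds against DMSO 3 and 4 were −1.08 (adjusted p = 1.84e-11) for PCBP1 and −2.91 (adjusted p = 1.49e-71) for B3GALT6. HPS6, a subunit of a complex that builds lysosome-related organelles, went from 134, 134, 46.2 and 46.5 CPM to 4.71, 4.90, 5.36 and 4.74 CPM (−2.81, adjusted p = 9.81e-65). SOWAHD, an ankyrin repeat gene, went from 190.2, 231, 50.7 and 50.2 CPM to 5.87, 5.58, 5.42 and 5.08 CPM (−2.77, adjusted p = 3.53e-65). BORCS6, SDHAF1, EXOSC4 and FAM110A stood at 0.782 to 2.82 CPM after SY-351 and at 10.1 to 98.7 CPM in DMSO. Their folds ran from −2.70 to −3.30, and EXOSC4 and FAM110A are annotated with 3 and 2 exons.

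Mitochondrial ribosomal protein genes mostly fell, although 9 of their 10 members have at most 4 exons and none has 1. Against DMSO 3 and 4, 6 of 10 fell and 1 rose (median −0.76, 9 lower and 0 higher with total counts), and against all 4 controls 6 fell. MRPL17 stood at 66.2, 62.3, 55.9 and 57.1 CPM in DMSO and at 5.92, 7.42, 7.61 and 7.05 CPM in SY-351. The DMSO pairs lay close together for this gene, and its log2 fold was −2.59 ± 0.15 (adjusted p = 3e-61) against DMSO 3 and 4 and −3.37 ± 0.41 (adjusted p = 0.00334) against all 4. MRPS26 went from 184, 219, 73.5 and 68.1 CPM to 14.8, 15.4, 14.9 and 14.1 CPM (−1.83, adjusted p = 8.16e-32). MRPL57 went from 237, 282, 56.9 and 57.1 CPM to 21.8, 21.0, 21.3 and 19.9 CPM (−1.02, adjusted p = 1.97e-10). The one that rose was MRPL53, at 22.3 and 26.9 CPM in DMSO 3 and 4 and at 33.8, 23.3, 31.2 and 30.5 CPM in SY-351, where CPM ranges overlap. MRPS34 did not pass the test under TMM (−0.23, adjusted p = 0.247) and fell under total count scaling (−0.65).

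Respiratory chain genes moved the opposite way. All 11 members rose against DMSO 3 and 4 (median 1.23), and 9 of them also rose under total count scaling. COX8A, a subunit of cytochrome c oxidase (chr11:63974619-63976543, 2 exons), stood at 466, 545, 144 and 156 CPM in DMSO and at 297, 284, 281 and 280.2 CPM in SY-351. NDUFB10, a subunit of complex I, stood at 339, 394, 185 and 187 CPM in DMSO and at 296, 279, 272 and 262 CPM in SY-351. Both lay above DMSO 3 and 4 and below DMSO 1 and 2, with log2 folds of 1.34 ± 0.17 (adjusted p = 2.01e-14) and 1.00 ± 0.17 (adjusted p = 1.03e-08) against DMSO 3 and 4 and no call with all 4 controls (adjusted p = 0.533 and 0.662). ATP5ME, a subunit of the ATP synthase, was the member of the list called in both comparisons, from 27.0, 21.5, 77.2 and 76.1 CPM to 171, 157, 152 and 144 CPM without overlap (1.45 ± 0.17 with DMSO 3 and 4, 1.70 ± 0.29 and adjusted p = 0.00835 with all 4). CYC1, cytochrome c1 of complex III, rose by 0.54 under TMM (adjusted p = 0.00225) and not under total counts (0.12, adjusted p = 0.117).

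Ferritin and glutathione peroxidase mRNAs were also higher after SY-351 than in DMSO 3 and 4. FTL (chr19:48965308-48966879, 4 exons) reached 9960.1, 9856, 9781 and 9899 CPM in SY-351, against the 4188 and 4392 CPM given above. Its log2 fold was 1.62 ± 0.18 (adjusted p = 3.8e-18), and no other member took more counts. GPX1, a selenium-dependent glutathione peroxidase with 1 exon in the annotation, stood at 1308, 1412, 224 and 235.5 CPM in DMSO and at 339, 333, 335 and 322 CPM in SY-351 (0.95, adjusted p = 6.35e-08). GPX4, which reduces lipid peroxides, stood at 459, 499, 148 and 160.3 CPM in DMSO and at 269, 258, 279 and 277 CPM in SY-351 (1.23, adjusted p = 2.18e-12). FTL, GPX1 and GPX4 were not called with all 4 controls (adjusted p = 0.262, 0.201 and 0.511). The folds of GPX1 and GPX4 were then −1.81 and −0.69. Of the 8 members of this list 4 rose, including the metallothionein MT2A, and MT1X fell. Many near-identical processed copies of FTL exist in the genome, and the treatment of reads matching several places is not given in the sources used here.

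Of 10 members among myeloid granule and S100 genes 9 rose and 1 fell, RNASE6, against DMSO 3 and 4 under both scalings, with a median log2 fold of 1.52. CTSG, the neutrophil granule protease cathepsin G (chr14:24573517-24576250, 5 exons), stood at 55.4, 12.7, 339 and 339 CPM in DMSO and at 681, 651, 627 and 606 CPM in SY-351. Every treated library lay above every DMSO library, with a log2 fold of 1.34 ± 0.17 (adjusted p = 8.86e-14) against DMSO 3 and 4. S100A12, a calcium-binding protein of myeloid cells, stood at 0.224, 0.0772, 9.05 and 9.71 CPM in DMSO and at 44.1, 42.0, 44.7 and 44.7 CPM in SY-351 (2.64, adjusted p = 1.06e-45). S100A4 stood at 1.58, 0.540, 50.2 and 54.0 CPM in DMSO and at 127, 117, 122 and 145 CPM in SY-351 (1.71, adjusted p = 1.87e-21). RNASE2, a granule ribonuclease, stood at 1.09, 0.241, 153 and 149.9 CPM in DMSO and at 279, 279, 269 and 278 CPM in SY-351 (1.29). None of CTSG, S100A12, S100A4 and RNASE2 overlapped between groups, yet none was called with all 4 controls (adjusted p = 0.0728 to 0.31), and as a ratio DMSO 1 and 2 lay further below DMSO 3 and 4 than those lay below SY-351.

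S100A6, a further calcium-binding protein of the list, stood at 68.1, 62.7, 25.7 and 27.5 CPM in DMSO and at 80.2, 74.7, 71.8 and 79.1 CPM in SY-351 (1.94 against DMSO 3 and 4). RETN and SLPI, named for their folds, rose too. RETN, the cytokine resistin, stood at 64.7, 68.3, 33.998 and 33.7 CPM in DMSO and at 104, 104, 103 and 94.99 CPM in SY-351 (2.01 against DMSO 3 and 4, adjusted p = 3.36e-28). SLPI, a secreted inhibitor of leukocyte proteases, stood at 12.3 and 13.05 CPM in DMSO 3 and 4 and at 48.97, 49.4, 45.5 and 48.2 CPM in SY-351 (2.34, adjusted p = 5.86e-37). In DMSO 1 and 2 it was at 0.00932 and 0.193 CPM, the first of these a single count. S100A6, RETN and SLPI were not called with all 4 controls (adjusted p = 0.748, 0.442 and 0.151). Of 6 interferon-induced members 5 rose and SOCS1 did not pass (4 higher and 1 lower with total counts), and BST2, the virus-tethering protein tetherin, rose with both sets of controls. It stood at 12.2, 5.68, 20.9 and 21.0 CPM in DMSO and at 41.3, 39.0, 37.8 and 38.5 CPM in SY-351, without overlap. Its log2 fold was 1.33 with DMSO 3 and 4 (adjusted p = 3.34e-14) and 1.38 with all 4 (adjusted p = 0.0189), and the latter call was lost without any 1 SY-351 library (highest adjusted p 0.107).

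**Figure D4:**
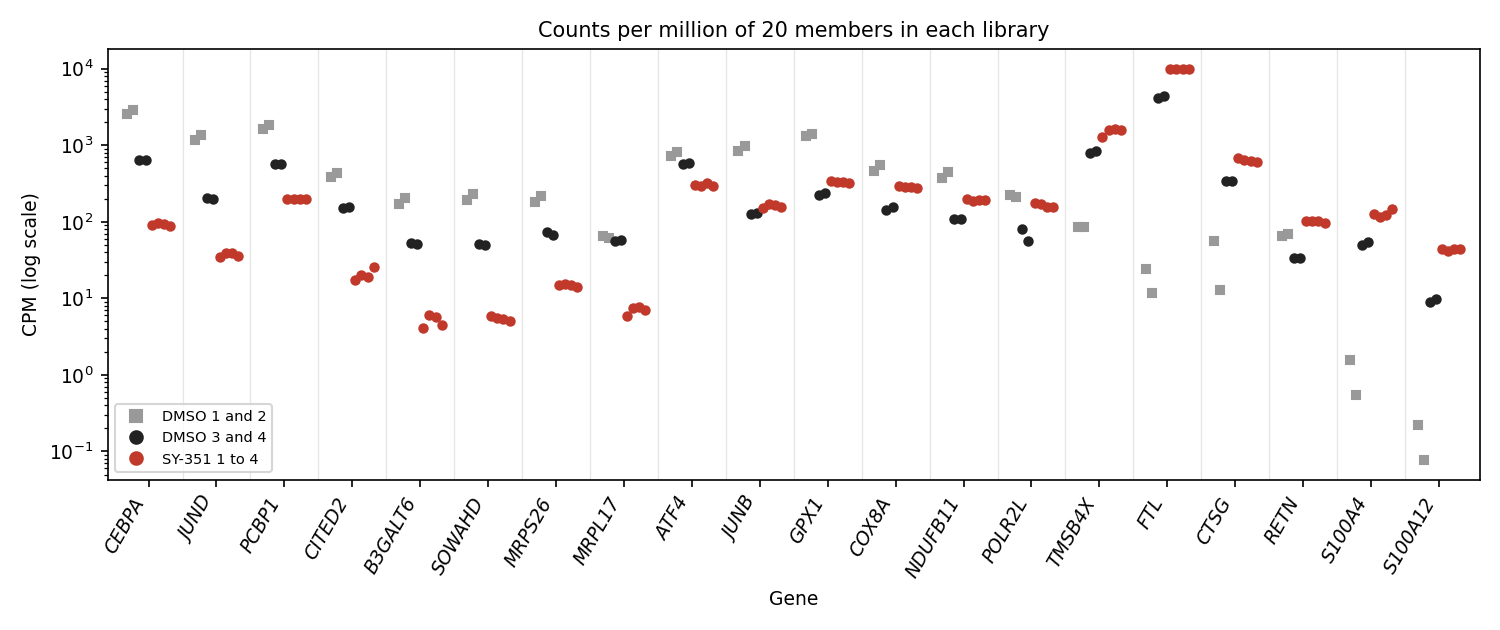
CPM (log scale) of 20 members in each library, 1 point per library: grey squares DMSO 1 and 2, black circles DMSO 3 and 4, red circles SY-351 1 to 4. From CEBPA to ATF4 the red points lie below all DMSO points, and from JUNB to POLR2L they lie between the DMSO pairs; from TMSB4X to S100A12 they lie above all DMSO points.

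Cytoskeletal genes split. TMSB4X and TMSB10, thymosins that hold actin monomers, rose against DMSO 3 and 4, while the actin gene ACTG1 and the tubulin gene TUBB4B fell. TMSB4X stood at 85.3, 84.4, 790.1 and 835 CPM in DMSO and at 1274, 1597, 1628 and 1567 CPM in SY-351 (1.32, adjusted p = 1.11e-12). ACTG1 stood at 5639.6, 3034, 3505 and 3526 CPM in DMSO and at 2060.3, 1927, 1893 and 1930.5 CPM in SY-351. Its groups did not overlap, but the fold was smaller under TMM (−0.42 ± 0.16, adjusted p = 0.0226), and the call was lost without DMSO 4 or without any 1 of SY-351 2, 3 and 4 (highest adjusted p 0.102). TMSB4X and ACTG1 were not called with all 4 controls (adjusted p = 0.0634 and 0.138).

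Both RNA polymerase II subunits in the class rose against DMSO 3 and 4. POLR2L, a small subunit shared by all 3 nuclear RNA polymerases, stood at 225, 208, 79.97 and 55.6 CPM in DMSO and at 174, 169, 158 and 157 CPM in SY-351 (1.74, adjusted p = 2.71e-22). POLR2I, a zinc-binding subunit of RNA polymerase II, stood at 77.2, 81.5, 44.6 and 41.0 CPM in DMSO and at 65.2, 61.7, 47.9 and 59.0 CPM in SY-351 (0.89, adjusted p = 5.03e-07). With all 4 controls neither was called (adjusted p = 0.819 and 0.595). Of 3 spliceosome or LSm-type members 1 rose, NAA38 (1.12), and SF3B5, a subunit of the SF3b complex, and U2AF1L4 gave −0.24 (adjusted p = 0.224) and 0.32 (adjusted p = 0.102).

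Of 8 ubiquitin and proteasome members 3 rose and 2 fell, against 21.9% and 26.4% of all intervals. With total counts 2 rose and 5 fell, against 13.1% and 43.3%. UBB, which encodes polyubiquitin, stood at 269.6 and 281 CPM in DMSO 3 and 4 and at 103, 106, 102 and 97.2 CPM in SY-351 (−1.01, adjusted p = 3.85e-10), but at 2.73 and 1.99 CPM in DMSO 1 and 2. UBL5, a ubiquitin-like protein of pre-mRNA splicing, rose from 12.03, 7.89, 84.6 and 97.4 CPM to 198, 191, 175 and 177 CPM (1.44, adjusted p = 4.57e-16). PSMB4, a proteasome core subunit, rose under TMM by 0.51 (adjusted p = 0.00414) and did not pass under total counts (0.10, adjusted p = 0.241). The other rise was ISG15 and the other fall UBE2M. Heat shock and protein import genes gave 4 higher (TIMM13, TOMM6, HSPB1 and HSPB6) and 2 lower (DNAJC30 and HSPA2) of 9 members, and 3 higher and 4 lower with total counts. The cell cycle and replication list gave 1 lower of 5, and 4 lower with total counts. The 1 that fell, RPP25, encodes a ribonuclease P subunit and is not itself a cell cycle gene. CDK2AP2, CENPM and POLD4 of this list did not pass against DMSO 3 and 4 (edgeR adjusted p = 0.913, 0.0934 and 0.890). Of the 2 members among translation factors, EIF1B fell from 35.9 and 39.0 CPM in DMSO 3 and 4 to 8.15, 8.89, 7.95 and 9.57 CPM (−1.70, adjusted p = 4.13e-25), and PABPC3 rose. In DMSO 1 and 2 EIF1B stood at 8.71 and 5.56 CPM, so the groups overlapped, and it was not called with all 4 controls (adjusted p = 0.0943).

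**Figure D5:**
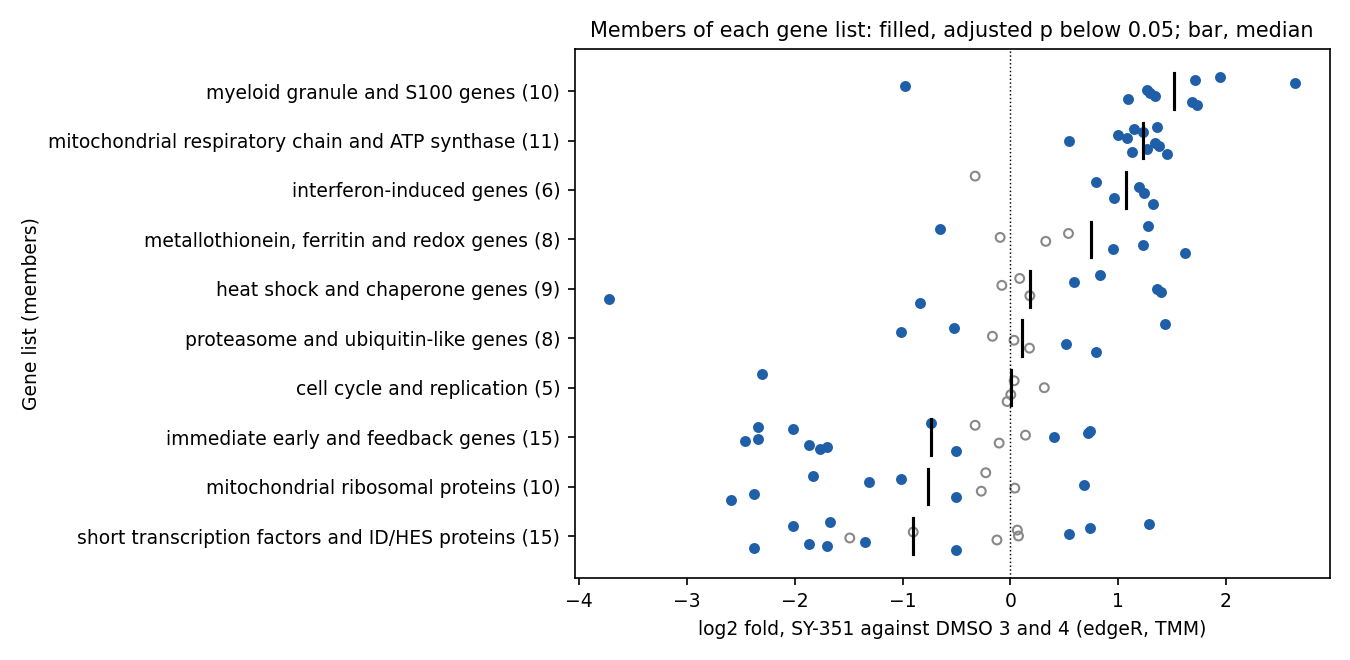
log2 fold against DMSO 3 and 4 (linear axis) of the members of each gene list with at least 5 members; filled points passed an adjusted p of 0.05, and the bar is the list's median. Medians run from −0.90 in short transcription factors to 1.52 in myeloid granule and S100 genes, with all members of the respiratory chain list above 0.

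Some single-exon genes that rose share sequence with abundant transcripts. MTRNR2L8, MTRNR2L4 and MTRNR2L10 are nuclear copies of the mitochondrial 16S ribosomal RNA gene, and their counts may include reads of the mitochondrial RNA. MTRNR2L8 stood at 0.503, 0.260, 70.0 and 67.1 CPM in DMSO and at 237, 241, 243 and 395 CPM in SY-351 (2.46, adjusted p = 4.27e-40). PABPC3 is an intronless copy of the poly(A)-binding protein gene PABPC1, and it stood at 97.8 and 104 CPM in DMSO 3 and 4 and at 175, 175, 179 and 175 CPM in SY-351 (1.22, adjusted p = 3.26e-12). The identity of these reads is uncertain. TCEAL8, a gene related to the elongation factor TFIIS, fell from 25.1 and 26.9 CPM to 3.63, 3.51, 2.98 and 3.56 CPM (−2.51, adjusted p = 7.12e-43), while DMSO 1 and 2 held 0.177 and 0.145 CPM.

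At the limit of the class, the longest members were APOE and NDUFB11, each 2996 bases, and the nearest intervals outside were TMEM179B (3000 bases) and SLC50A1 (3003 bases). Their log2 folds against DMSO 3 and 4 were 1.34 and 1.23 inside, and −0.07 and 0.42 outside. Against all 4 controls they were −0.75, −0.92, −1.26 and 0.68.

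The authors' deposited table of splicing compares inclusion of junctions and retained introns between SY-351 and control. It listed splicing variations for 57 of 575 members with a gene identifier (9.91%), against 134 of 577 matched intervals (23.2%). The 575 include single-exon members, which the matched intervals lack. Among members of at least 2 exons it listed 52 of 421 (12.35%). A retained intron was part of 63.4% of the 82 variations in members, of 61.1% of the 72 in members of at least 2 exons, and of 11.6% of the 242 in matched intervals. Some variations lay in genes annotated here with 1 exon, such as OLIG1, where a retained intron was part of the variation. At a probability of at least 0.95 that inclusion differed by at least 0.20, the authors' deposited table gave 38 variations in 29 of 575 members, 65.8% of them with a retained intron. In members of at least 2 exons the authors' deposited table gave 30 in 24 genes, 63.3% of them with a retained intron. In the matched intervals the authors' deposited table gave 144 variations in 90 of 577, 11.1% of them with a retained intron. Its largest differences in members with a retained intron in the variation, SY-351 minus control, were −0.70 in CXorf65 and in MRPL55, −0.61 in IZUMO4 and −0.59 in SOCS1, each for 1 junction or intron of the variation. MRPL55 encodes a mitochondrial ribosomal protein and SOCS1 an inhibitor of cytokine signalling. Which samples entered that table is not given in the sources used here.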

How the data were processed

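Per the labels' protocols, the RNA was selected for poly(A) and prepared with an Illumina TruSeq kit. The authors counted reads with featureCounts 1.6.2 (strand setting 1) over 1 interval per RefSeq transcript from start to end, per the file headers, and deposited raw counts. The build is GRCh38, and DESeq2 was used, per the submitters' processing notes. Columns not used numbered 0. The second file is the authors' deposited table of splicing differences and probabilities, whose sign was turned to SY-351 minus control; it uses another build, so no splicing coordinates are printed.

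Here counts were scaled to CPM (count per 1000000 assigned counts), and edgeR 4.0.16 under R 4.3.3 was run (TMM, filterByExpr, robust quasi-likelihood fit, group as the only term, two-sided, Benjamini-Hochberg over all intervals, 0.05). The filter kept 581 of 587 members with 8 libraries and 577 with 6. The SE of a fold was taken as its size over the root of F. Each member was paired, from the highest mean log2 CPM down and without replacement, with the nearest unused interval of 20 to 100 kb (largest gap 1.43). That mean was taken over all 8 libraries. Of all identifiers 17871 were named through RefSeq, 133 through GENCODE v29 and 89 kept their identifier, and 6 members have no symbol. The code was tested on simulated counts. No pair of libraries differed by less than sampling noise.

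The members, lists and tests were chosen with earlier results of these data known. Named were, in each comparison, the 8 largest folds in each direction among calls whose groups did not overlap and whose mean over the libraries fitted reached 10 CPM (LOC, LINC, MIR and SNOR symbols left out), the 3 members of each list with the highest CPM, the 5 highest members, and the intervals nearest 3000 bases. Members that complete a small count, and the splicing examples, were named after their values were seen. Lists of small nucleolar RNA host genes, polymerase III transcripts and the CDK-activating kinase held 0 members. Alternatives were DESeq2 1.42.0, other scalings, no filter, other member limits, other matching, a replicate block and leaving out each library. TMM from intervals of at least 10000 counts was added after seeing the data.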

Additional observations from a re-analysis of the deposited data

Results flagged for a closer look

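Of 140 groups of 4 libraries looked at (both groups of each named member, and the shares of counts), 10 held 1 library far from the other 3, and chance gives this in about 1 in 20 groups. In SY-351 replicate 4 the highest values were MTRNR2L8 at 395 CPM, MTRNR2L4 at 30.6 CPM, MTRNR2L10 at 25.9 CPM and NICOL1 at 34.3 CPM, and the lowest were RETN at 94.99 CPM and EXOSC4 at 2.31 CPM. That library also had the fewest counts, 43266228. In SY-351 replicate 3 PABPC3 was highest at 179 CPM and RNASE2 lowest at 269 CPM, and in SY-351 replicate 1 NDUFB11 was highest at 201 CPM. In DMSO replicate 2 TIMM8B was lowest at 25.3 CPM.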

How the results depend on the processing

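With all 4 controls, 155 members fell and 14 rose. DESeq2's test gave 267 and 44, total counts left 9 higher, and DMSO 1 and 2 as the only controls gave 415 lower and 117 higher. Leaving out 1 library gave 27 to 246 lower and 2 to 19 higher. Members under 2000 bases gave 61 and 8, a minimum of 1000 counts left 8 higher, and keeping ribosomal protein and histone genes gave 29 higher. With a replicate block edgeR called 0 lower and 0 higher (171 and 44 at an unadjusted p under 0.05, against 246 and 38 without it). Same-numbered libraries did not deviate together (r from −0.182 to 0.0078), so the numbers are not taken as pairs. The members' median difference from matched intervals, −1.37, was −0.91 to −2.48 over all alternatives.

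With DMSO 3 and 4, members under 2000 bases gave 66 lower and 100 higher, and the other alternatives kept both counts within 1.5 times. The median difference from matched intervals, 0.21, was −0.041 to 0.39 on leaving out 1 library, 0.25 with total counts, 0.54 under 2000 bases, 0.084 from 1000 counts, and 0.34 with ribosomal protein and histone genes kept. The median of multi-exon members, 0.39, became −0.05 with total counts. Of the 67 named members, ACTG1, CYC1 and PSMB4 lost their call against DMSO 3 and 4 under at least 1 alternative. Against all 4 controls 25 calls were lost with the replicate block and 13 to 18 without 1 SY-351 library. Depth limits members near 3 counts. The causes of these shifts were not tested.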
